A study of Homo sapiens with 8 samples.

Results

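The BCL2 family of apoptosis regulators was examined in BT-549, an established mesenchymal line of triple-negative breast cancer (TNBC). The members were 10 genes picked by symbol, namely 4 guardians (BCL2, BCL2L1, MCL1 and BCL2A1) and 6 BH3-only genes (BBC3, PMAIP1, BCL2L11, BMF, BIK and HRK), out of 23228 genes in the count lists. Every group consisted of unmodified BT-549 cells kept for 24 h in vehicle, in EC359 at 100 nM, in vorinostat at 10 µM, or in both drugs at these doses. EC359 inhibits LIFR, the receptor of the cytokine LIF, and vorinostat (SAHA) is an inhibitor of histone deacetylases. RNA was sequenced from 2 libraries per group, 8 in all, and each group therefore describes a single cell line at a single dose and time. The labels do not say whether the libraries of a group came from separate cultures, so p-values measure the spread between these libraries, which may be technical.

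Apoptosis through mitochondria is decided by binding between members of this family. The guardians hold the pore-forming effectors BAX and BAK in check and keep the outer mitochondrial membrane closed. BH3-only proteins, which share a short helix called the BH3 domain, occupy the groove of the guardians or activate the effectors directly, and their genes are the points at which damage, growth factor loss and stress signals enter. Guardians differ in which BH3-only proteins they bind. NOXA, the product of PMAIP1, binds MCL1 and the product of BCL2A1, whereas BIM, the product of BCL2L11, binds all guardians. In breast cancer cells MCL1 and BCL2L1 are the guardians most often linked to survival under drugs. The question the design poses for these genes is how their transcripts moved when LIFR was inhibited, when deacetylases were inhibited, and when both were.

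Libraries held between 19069450 and 24759041 counts on genes. Values are given as CPM, the reads of a gene scaled to a common library size by TMM normalization. The 13694 genes that passed a filter on low counts were tested together with edgeR's quasi-likelihood test, and all adjusted p-values below are Benjamini-Hochberg values over them. A gene is said to have risen or fallen where its adjusted p was under 0.01 and its absolute log2 fold change (± SE) over 1. Replicate libraries lay furthest apart under EC359, where the SD of their log2 difference over the tested genes was 0.563, compared with 0.349 in vehicle, 0.312 in vorinostat and 0.448 in the combination. The mesenchymal markers VIM, FN1, CDH2, SPARC, ZEB1 and CD44 summed to between 9210 and 10500 CPM in the libraries of vehicle and the single drugs and to 16700 and 17100 CPM in the combination. They moved in opposite directions, with group means from vehicle to combination of 2111 to 9376 CPM for VIM and 3459 to 907 CPM for SPARC, while ZEB1 had 83.5 CPM in vehicle and 44.7 CPM with vorinostat. Of 7 markers listed as low in this line, ERBB2 had means of 99.1 CPM in vehicle, 15.3 CPM with vorinostat and 12.3 CPM in the combination. In vehicle ERBB2 was thus not low beside the mesenchymal markers ZEB1 and CDH2 (23.7 CPM). The other markers listed as low had higher group means with vorinostat than in vehicle, except PGR at 0 in both. In vehicle and vorinostat, EPCAM had 0.165 and 3.20 CPM, GATA3 0.305 and 2.29 CPM and CDH1 0.258 and 1.34 CPM. FOXA1 had 0.634 and 1.03 CPM, and ESR1 0 and 0.248 CPM. These marker values were not tested, nor was their part in the results for the members. RNA was taken from bulk cultures, in which fewer cells of a kind and less RNA per cell cannot be told apart.

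All 10 members passed the filter, but not all by the same route. BCL2A1 lay under the filter's cutoff of 0.483 CPM in vehicle, BIK had no count in vehicle or EC359, and HRK exceeded the cutoff in the combination alone. These genes were tested because of the groups in which they were high. The gene counts do not separate splice forms, which matters for BCL2L1, MCL1 and BCL2L11, whose long and short forms act differently.

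The promoters of 4 members are shown as examples of different responses, picked with the results known. BCL2A1 rose with each drug, and more in the combination than with either. BMF rose with vorinostat, and PMAIP1 and BBC3 lay above vehicle with either drug at an adjusted p under 0.01. RefSeq promoter entries (GRCh38.p14) matched 8 of the 10 members, and MCL1 and BIK had no entry. Each line gives the 250 bases before the transcription start, 5′ to 3′ on the strand of the gene. Capitals mark letters that matched a searched motif on either strand.
BCL2A1: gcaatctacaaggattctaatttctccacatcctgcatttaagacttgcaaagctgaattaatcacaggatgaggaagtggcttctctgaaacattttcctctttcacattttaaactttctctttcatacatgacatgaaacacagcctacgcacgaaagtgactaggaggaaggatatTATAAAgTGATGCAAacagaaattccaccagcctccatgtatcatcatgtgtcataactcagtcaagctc
PMAIP1: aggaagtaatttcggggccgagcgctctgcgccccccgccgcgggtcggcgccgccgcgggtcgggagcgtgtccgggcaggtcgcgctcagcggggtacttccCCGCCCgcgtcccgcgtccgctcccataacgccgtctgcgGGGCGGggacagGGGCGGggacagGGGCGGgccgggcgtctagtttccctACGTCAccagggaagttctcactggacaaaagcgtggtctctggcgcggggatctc
BBC3: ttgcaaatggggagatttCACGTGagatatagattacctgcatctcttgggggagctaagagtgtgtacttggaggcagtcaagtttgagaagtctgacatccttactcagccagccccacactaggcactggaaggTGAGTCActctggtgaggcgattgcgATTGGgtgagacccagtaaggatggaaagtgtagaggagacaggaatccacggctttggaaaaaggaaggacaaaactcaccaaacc
BMF: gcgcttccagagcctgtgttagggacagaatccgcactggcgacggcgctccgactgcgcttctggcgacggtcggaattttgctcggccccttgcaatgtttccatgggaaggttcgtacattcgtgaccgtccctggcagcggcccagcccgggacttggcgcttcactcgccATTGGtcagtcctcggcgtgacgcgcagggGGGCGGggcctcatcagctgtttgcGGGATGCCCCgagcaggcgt
These windows lie at chr15:79971197-79971446 (minus strand) for BCL2A1, chr18:59899746-59899995 (plus strand) for PMAIP1, chr19:47232668-47232917 (minus strand) for BBC3 and chr15:40108880-40109129 (minus strand) for BMF, the last being the upstream of 2 RefSeq entries for that gene.

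The BCL2A1 window was the poorest in G and C of these, at 38.8% against 49.2% for BBC3, 65.2% for BMF and 72.8% for PMAIP1. It held a TATA box (TATAAA) 70 bases before the start and, 63 bases before it, a composite CEBP-ATF motif (TGATGNAA). TATAAA was present in 10.7% and the composite motif in 3.14% of the 35114 promoter windows of the same length. PMAIP1 held 4 GC boxes (GGGCGG, in 42.6% of windows) and the core of a cyclic AMP response element (TGACGT, in 7.1%) that began 56 bases before its start. BBC3 held an E-box (CACGTG, in 6.35%), an AP-1 site (TGANTCA, in 6.57%) and a CCAAT box (in 32%). BMF held a CCAAT box, a GC box and a kappaB motif (in 9.96%). All motifs were searched on both strands and were chosen with the sequences in view. They are descriptions of these letters and do not show binding.

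**Figure D1:**
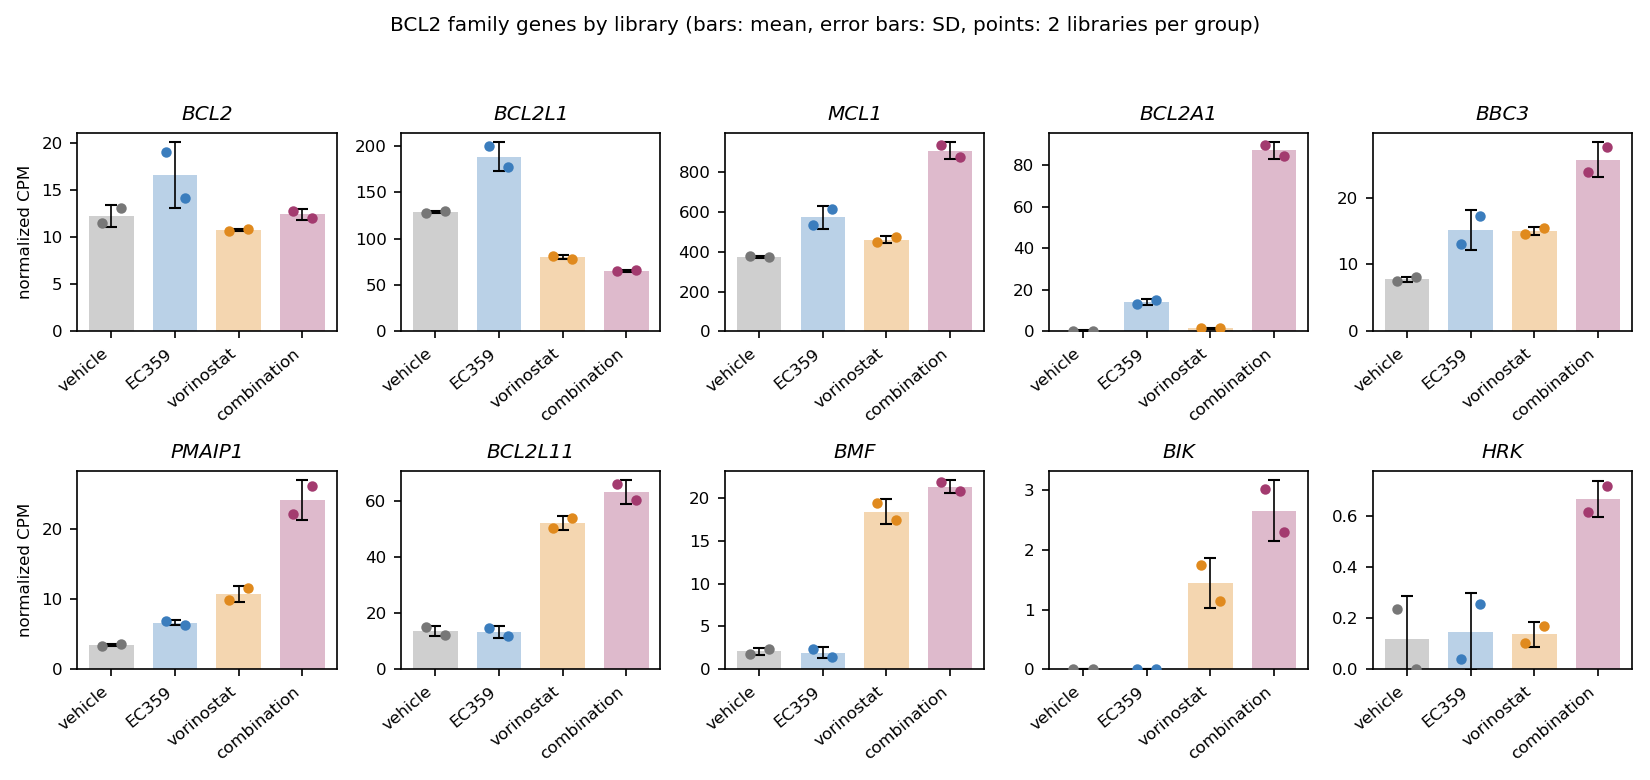
Normalized CPM of the 10 members in each group, with bars for the mean, error bars for the SD and points for the 2 libraries. The vertical scale differs between panels, and the libraries of the combination lie above all other libraries for MCL1, BCL2A1, BBC3, PMAIP1, BCL2L11, BMF, BIK and HRK, and below them for BCL2L1.

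Among the guardians, BCL2A1 moved most. BCL2A1 encodes BFL-1/A1, a short-lived guardian best known from blood cells and as a target of NF-κB. The gene lies on chromosome 15 at 80253234 to 80263538 (GRCh37, minus strand). BCL2A1 measured 0.378 and 0.280 CPM in the vehicle libraries, which corresponds to 8 and 6 reads. It measured 12.99 and 14.96 CPM with EC359, 1.39 and 1.66 CPM with vorinostat, and 90.0 and 84.4 CPM with both drugs. No libraries of different groups overlapped, and the order of the groups was vehicle, vorinostat, EC359 and combination. BCL2A1 rose by 5.38 ± 0.22 on the log2 scale with EC359 (41.7-fold, adjusted p = 1.8e-06), and by 2.20 ± 0.29 with vorinostat (4.6-fold, adjusted p = 1.5e-04). The combination lay 260-fold above vehicle (log2 8.03 ± 0.21, adjusted p = 2.2e-08), with a vehicle level that rests on the few reads given above. Against vorinostat alone the combination was 56.7-fold higher (adjusted p = 1.6e-07), and against EC359 alone 6.24-fold higher (adjusted p = 5.0e-07). PTPRC, the leukocyte marker, had group means of 0.681 CPM in vehicle, 0.390 CPM with EC359, 0.503 CPM with vorinostat and 0 in the combination. Whether leukocyte RNA added to the BCL2A1 reads was not tested. The summed level of PTPRC, PECAM1 and ALB, markers of leukocytes, endothelium and liver, lay between 0.203 and 3.5 CPM over the 8 libraries.

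MCL1, a guardian with a rapid turnover of both its RNA and its protein, was the most abundant member per transcript length in every group. It lies on chromosome 1 at 150533371 to 150552214 (GRCh37, minus strand). Its levels were 377 and 372 CPM in vehicle, 533 and 614 CPM with EC359, 449 and 474 CPM with vorinostat, and 940 and 880 CPM with both drugs. MCL1 rose in the combination by 1.28 ± 0.093 on the log2 scale (2.43-fold, adjusted p = 2.9e-06). With EC359 alone the log2 fold change of 0.61 ± 0.092 passed the p threshold (adjusted p = 0.0022) but not that on size. The same held for the combination against vorinostat, where MCL1 came to 1.97-fold (log2 0.98 ± 0.092, adjusted p = 1.4e-04), just inside the size threshold. For vorinostat alone the adjusted p was 0.017, at a log2 fold change of 0.30 ± 0.092.

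BCL2L1, which encodes BCL-XL and, by splicing, the shorter BCL-XS, was the member whose transcript went down. It lies on chromosome 20 at 30252255 to 30311792 (GRCh37, minus strand). Vehicle libraries had 128 and 130 CPM, EC359 libraries 200 and 178 CPM, vorinostat libraries 81.8 and 78.5 CPM, and combination libraries 64.7 and 66.0 CPM. EC359 alone therefore lay above vehicle and both groups with vorinostat lay below it, without overlap. Against EC359 alone the combination fell by 1.53 ± 0.094 on the log2 scale (adjusted p = 1.3e-06). The differences from vehicle passed the p threshold but not the size threshold. Their log2 fold changes were 0.55 ± 0.092 for EC359 (adjusted p = 0.0040), -0.69 ± 0.092 with vorinostat (adjusted p = 1.7e-04) and -0.98 ± 0.093 with both (adjusted p = 1.5e-05). The combination against vorinostat passed neither threshold, at -0.29 ± 0.093 (adjusted p = 0.043). An antisense RNA, ABALON, covers 945 bases of BCL2L1 exons on the opposite strand. Whether counting used strand is not given in the sources used here, so reads of these genes cannot be told apart.

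BCL2 itself, the founding guardian, lies on chromosome 18 at 60790579 to 60987361 (GRCh37, minus strand) and passed no threshold in any comparison. Its levels were 11.5 and 13.1 CPM in vehicle, 19.1 and 14.2 CPM with EC359, 10.7 and 10.8 CPM with vorinostat, and 12.9 and 12.1 CPM with both drugs. The EC359 libraries were the highest and also lay furthest apart. The log2 fold change against vehicle was 0.44 ± 0.17 with EC359 (adjusted p = 0.12), -0.19 ± 0.17 with vorinostat (adjusted p = 0.36) and 0.02 ± 0.17 with both (adjusted p = 0.92).

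Turning to the BH3-only genes, PMAIP1 responded to vorinostat and further to the addition of EC359. PMAIP1 encodes NOXA, is a target of ATF4, and lies on chromosome 18 at 57567228 to 57571537 (GRCh37, plus strand). The levels were 3.35 and 3.60 CPM in vehicle, 6.97 and 6.39 CPM with EC359, 9.93 and 11.6 CPM with vorinostat, and 22.2 and 26.2 CPM with both. The groups were fully separated. PMAIP1 rose by 1.63 ± 0.18 on the log2 scale with vorinostat (3.1-fold, adjusted p = 4.0e-05) and by 2.80 ± 0.17 with the combination (6.94-fold, adjusted p = 1.2e-06). The combination lay 2.24-fold above vorinostat alone (log2 1.16 ± 0.16, adjusted p = 0.0010) and 3.61-fold above EC359 alone. With EC359 alone the log2 fold change was 0.94 ± 0.18 (adjusted p = 0.0074), short of the size threshold. The call against vorinostat was lost when a vorinostat library or the library combination 2 was left out, with log2 fold changes between 0.995 and 1.29 and adjusted p-values between 0.013 and 0.023.

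BBC3 encodes PUMA, which binds all guardians, and lies on chromosome 19 at 47724079 to 47736023 (GRCh37, minus strand). It measured 7.55 and 8.08 CPM in vehicle, 13.03 and 17.3 CPM with EC359, 14.6 and 15.5 CPM with vorinostat, and 23.9 and 27.5 CPM with both. The libraries of either single drug overlapped with each other and lay between those of vehicle and of the combination. BBC3 rose in the combination by 1.72 ± 0.17 on the log2 scale (3.28-fold, adjusted p = 2.2e-05). The single drugs gave nearly equal log2 fold changes of 0.95 ± 0.17 for EC359 (adjusted p = 0.0059) and 0.94 ± 0.17 for vorinostat (adjusted p = 0.0011). Both passed the p threshold without reaching the size threshold, and so did the combination against vorinostat (log2 0.77 ± 0.16, adjusted p = 0.0086).

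BCL2L11 and BMF followed vorinostat, with no change detected on adding EC359. BCL2L11 encodes BIM, which FOXO factors induce and ERK signaling removes. It lies on chromosome 2 at 111876955 to 111926021 (GRCh37, plus strand). BCL2L11 levels were 14.9 and 12.3 CPM in vehicle, 14.8 and 11.8 CPM with EC359, 50.3 and 53.8 CPM with vorinostat, and 66.0 and 60.1 CPM with both. Vehicle and EC359 libraries overlapped fully and lay far below the others. BCL2L11 rose 3.83-fold with vorinostat (log2 1.94 ± 0.15, adjusted p = 5.4e-06) and 4.64-fold with the combination (log2 2.21 ± 0.15, adjusted p = 1.9e-06). The log2 fold change was -0.03 ± 0.15 for EC359 against vehicle (adjusted p = 0.92) and 0.28 ± 0.14 for the combination against vorinostat (adjusted p = 0.17).

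BMF encodes a BH3-only protein that is held at the cytoskeleton in healthy cells, and lies on chromosome 15 at 40380091 to 40401093 (GRCh37, minus strand). It measured 1.79 and 2.38 CPM in vehicle, 2.43 and 1.47 CPM with EC359, 19.4 and 17.4 CPM with vorinostat, and 21.8 and 20.7 CPM with both. As for BCL2L11, the libraries with vorinostat lay far above those without it, and the combination libraries lay above those of vorinostat alone. BMF rose by 3.13 ± 0.23 on the log2 scale with vorinostat (8.77-fold, adjusted p = 4.5e-06) and by 3.34 ± 0.23 with the combination (10.2-fold, adjusted p = 2.2e-06). On adding EC359 the log2 fold change was -0.08 ± 0.27 without vorinostat (adjusted p = 0.88) and 0.21 ± 0.19 with it (adjusted p = 0.45). Antisense genes overlap the exons of both on the opposite strand, MIR4435-2HG over 727 bases of BCL2L11 and BMF-AS1 over 461 bases of BMF, and the limit given for BCL2L1 applies to them.

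BIK had no count without vorinostat, and HRK had few counts in every group. BIK, whose protein resides mainly at the endoplasmic reticulum, lies on chromosome 22 at 43506756 to 43525718 (GRCh37, plus strand). It had 0 counts in the 4 libraries of vehicle and EC359, 34 and 27 counts with vorinostat (1.75 and 1.15 CPM) and 59 and 45 counts with both drugs (3.02 and 2.30 CPM). Against a floor of 3 counts per library, BIK was at least 9.52-fold higher with vorinostat (adjusted p = 4.7e-04) and at least 17.5-fold higher with the combination (adjusted p = 1.5e-04) than in vehicle. The libraries of these groups did not overlap, but the log2 fold change between them was 0.88 ± 0.42 (adjusted p = 0.17). HRK, known mainly from neurons, lies on chromosome 12 at 117293949 to 117319246 (GRCh37, minus strand). HRK had 5 and 0 counts in vehicle, 1 and 5 with EC359, 2 and 4 with vorinostat, and 12 and 14 with both drugs. The combination libraries were the highest at 0.614 and 0.715 CPM, and with so few reads the difference from vehicle (log2 2.44 ± 1.00) missed the threshold, at an adjusted p of 0.053.

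**Figure D2:**
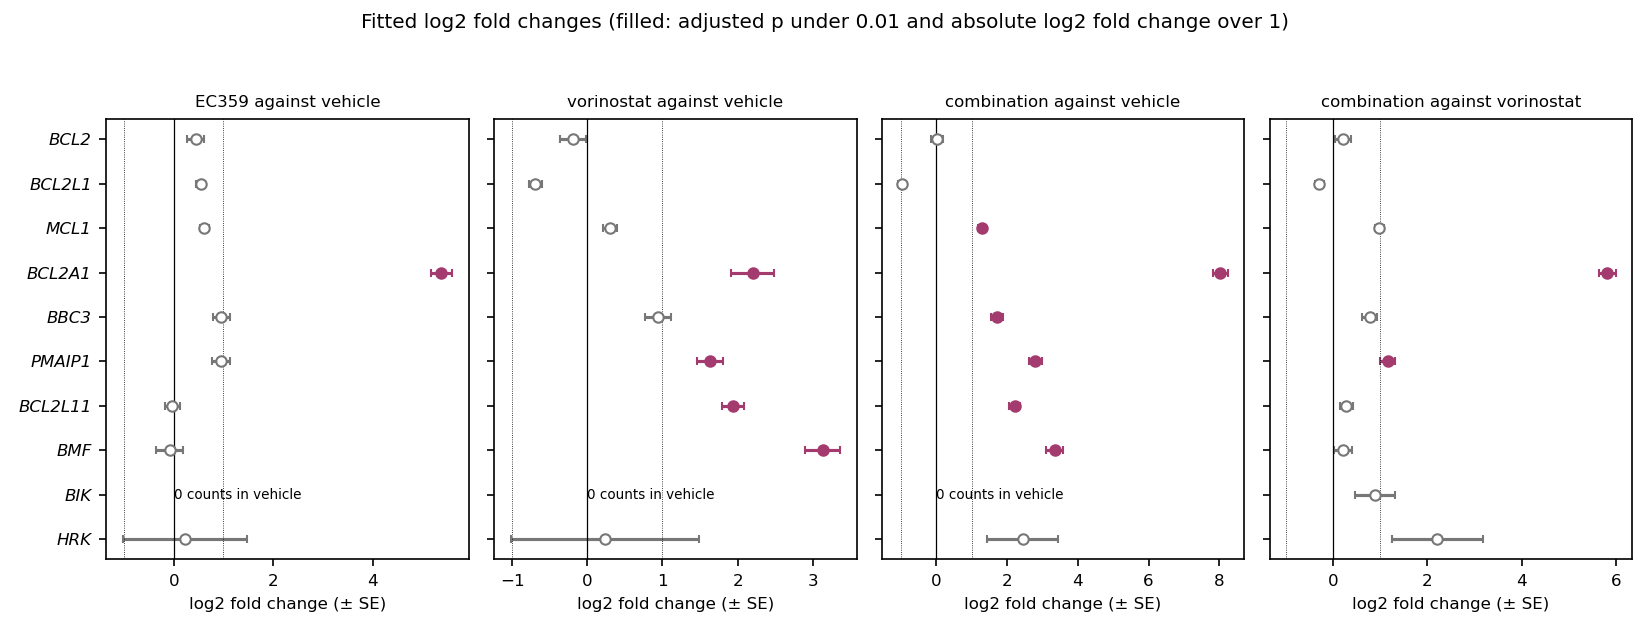
Log2 fold change (± SE) of each member in 4 comparisons, with filled points where the adjusted p was under 0.01 and the absolute log2 fold change over 1. The horizontal scale differs between panels, BIK is left out against vehicle because it had no count there, and BCL2A1 lies furthest to the right except under vorinostat, where BMF does.

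Counted over the members, EC359 alone raised 1 of 10 (BCL2A1) and lowered 0, where 1.94% of all tested genes rose and 1.72% fell. A further 4 members, BCL2L1, MCL1, BBC3 and PMAIP1, lay above vehicle at an adjusted p under 0.01 with smaller folds. That makes 5 of 10 higher without the size threshold, which 3.81% of all tested genes were. In a fit on only the 4 libraries of EC359 and vehicle, BCL2L1, MCL1, BBC3 and PMAIP1 no longer passed the p threshold. Their adjusted p-values there were 0.046, 0.037, 0.052 and 0.051 in this order, against 0.0012 for BCL2A1 (edgeR's quasi-likelihood test). With 1 library left out, the log2 fold change under EC359 ranged from 0.737 to 1.15 for BBC3 and from 0.878 to 1 for PMAIP1. Vorinostat alone raised 5 (BCL2A1, PMAIP1, BCL2L11, BMF and BIK) and lowered 0, against 16.8% and 13.3% of all genes. The combination raised 7, adding MCL1 and BBC3 to those 5, and lowered 0, against 19.5% and 15.3%. BCL2L1, just inside the size threshold there, was called lower when libraries were scaled by total counts and in 3 other fits. The members had a median log2 fold change of 0.49 under EC359, 1.29 under vorinostat and 2.33 under both drugs, and all tested genes had medians of -0.02, 0.03 and 0.07. BCL2A1, BIK and HRK entered these counts of calls through the groups in which they were high. BIK, with no count in vehicle, could not be called lower, and BCL2A1 and HRK lay under the filter's cutoff there. The same genes entered the medians by this route, and BIK was counted at 0 under EC359. The fitted value of BIK depends on the prior count, but at its lower bound it stays above both other medians and leaves them as they are. Those 3 comparisons share the vehicle libraries. No member fell in them by DESeq2 either, and those below vehicle at an unadjusted p under 0.05 in edgeR numbered 0 under EC359, 1 under vorinostat and 1 under both drugs, BCL2L1 in both cases.

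The combination was also compared with each drug alone. Against vorinostat alone the combination raised BCL2A1 and PMAIP1, 2 of 10 members, where 3.37% of all genes rose and 0.876% fell, and MCL1 and BBC3 passed the p threshold alone. Without the size threshold 4 of 10 members were thus higher, against 8.45% of all tested genes. It lowered 0 members by edgeR and 0 by DESeq2, with 1 (BCL2L1) lower at an unadjusted p under 0.05. Against EC359 alone it raised 5 members (BCL2A1, PMAIP1, BCL2L11, BMF and BIK) and lowered BCL2L1, where 19.8% of genes rose and 13.9% fell. BIK had no count with EC359 and could not be called lower there.

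Whether EC359 acted differently in the presence of vorinostat was tested as the interaction, the log2 change on adding EC359 with vorinostat minus that without it, called at an adjusted p under 0.01. Of all tested genes 1.62% were called above and 0.482% below 0. BCL2L1 was the called member, at -0.84 ± 0.13 (adjusted p = 0.0069). EC359 changed it by 0.55 ± 0.092 without vorinostat and by -0.29 ± 0.093 with it, and the latter had an adjusted p of 0.043. The BCL2L1 call was lost when any library of vehicle, vorinostat or the combination was left out, with adjusted p-values between 0.028 and 0.066 and no change of sign. Without EC359 2, MCL1 was called as well, at 0.47 (adjusted p = 0.0044). For BCL2A1 the change on adding EC359 was 5.38 ± 0.22 without and 5.82 ± 0.17 with vorinostat, and the difference of 0.44 ± 0.37 was not called (adjusted p = 0.62). MCL1 had an interaction of 0.37 ± 0.13 (adjusted p = 0.14), PMAIP1 one of 0.22 ± 0.24 (adjusted p = 0.66) and BBC3 one of -0.18 ± 0.24 (adjusted p = 0.73). For these genes the combined level did not differ detectably from the sum of the single changes on the log2 scale.

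**Figure D3:**
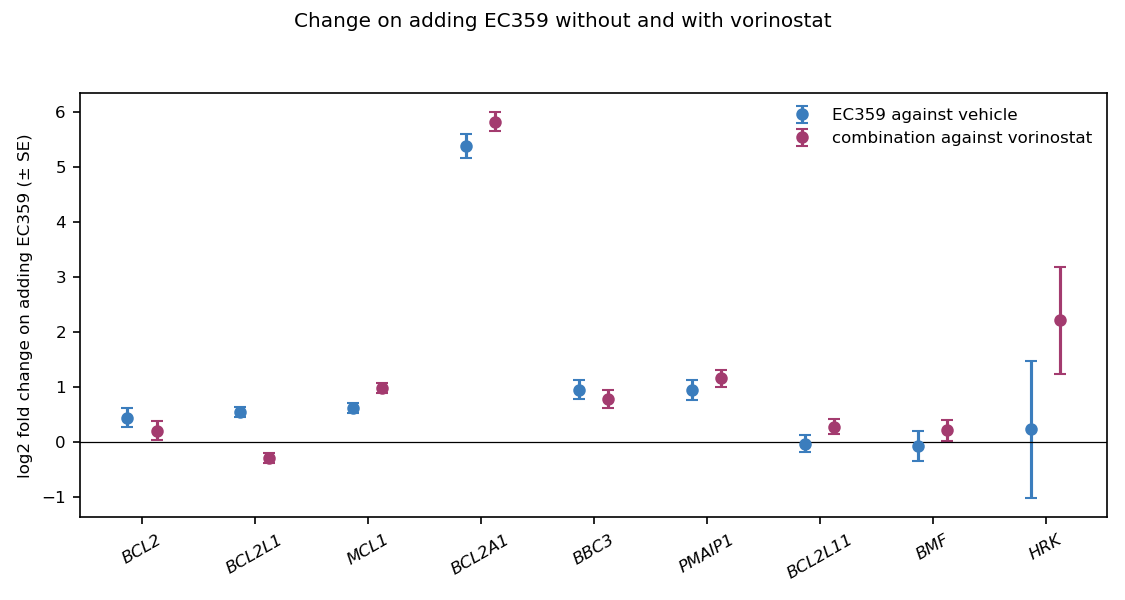
Log2 fold change (± SE) on adding EC359, without vorinostat (EC359 against vehicle) and with it (combination against vorinostat), for the members other than BIK, which had no count without vorinostat. The paired points lie on opposite sides of 0 for BCL2L1, at 0.55 and -0.29, and near each other for BCL2A1, at 5.38 and 5.82.

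To compare levels between genes, CPM was divided by the length of the principal transcript in kilobases, which gives RPKM. In vehicle the order was MCL1 at 94.8 ± 0.93 RPKM (SD, n = 2), BCL2L1 at 50.2 ± 0.53, BBC3 at 4.24 ± 0.20, BCL2L11 at 2.67 ± 0.37, and PMAIP1 and BCL2 at 1.83 ± 0.091 and 1.78 ± 0.17, which overlapped. BMF and BCL2A1 followed at 0.445 ± 0.089 and 0.422 ± 0.088 RPKM and also overlapped, with HRK and BIK at or near 0. With EC359, BCL2A1 moved up to the place behind MCL1 and BCL2L1, at 17.9 ± 1.8 RPKM. With vorinostat BCL2L11 took that place at 10.2 ± 0.48 RPKM, ahead of BBC3 at 8.13 ± 0.35. In the combination BCL2A1 reached 111.8 ± 5.1 RPKM, next to MCL1 at 230.4 ± 11 and above BCL2L1 at 25.4 ± 0.36. BBC3, PMAIP1 and BCL2L11 were not separated there, at 13.9 ± 1.4, 12.7 ± 1.5 and 12.4 ± 0.82 RPKM.

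Summed over the members, the guardians came to 147 and 147 RPKM in vehicle, 232 and 246 with EC359, 149 and 154 with vorinostat, and 380 and 358 with both drugs. The BH3-only members came to 9.21 and 9.19 RPKM, 14.1 and 15.4, 29 and 30, and 45.5 and 47.4 in the same order. The guardian sum thus lay higher in the groups with EC359, and the BH3-only sum was highest in the groups with vorinostat. The ratio of guardian to BH3-only members was 16 in both vehicle libraries, 16.4 and 15.9 with EC359, 5.13 and 5.15 with vorinostat, and 8.36 and 7.56 with both. These sums leave out BAD and BID, which are also BH3-only genes, and the homologue BCL2L2. BAD had group means of 54.9 RPKM in vehicle, 37.6 with EC359, 74.5 with vorinostat and 62.2 in the combination. In the same order BID had 17.6, 18.6, 4.63 and 3.55 RPKM, and BCL2L2 had 9.34, 13.3, 6.07 and 7.70. BAD alone thus exceeded the BH3-only sum in every group, so the ratios hold for the picked members only. BCL2A1 made up 0.328% and 0.244% of the guardian sum in vehicle, 7.18% and 7.81% with EC359, 1.2% and 1.38% with vorinostat, and 30.3% and 30.2% in the combination. The share of BCL2L1 went from 33.8% and 34.4% in vehicle to 6.61% and 7.15% in the combination, while that of MCL1 was 64.8% and 64.1% in vehicle and 62.6% and 62.2% in the combination. The sums describe transcripts and were not tested, and they give no measure of protein.

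**Figure D4:**
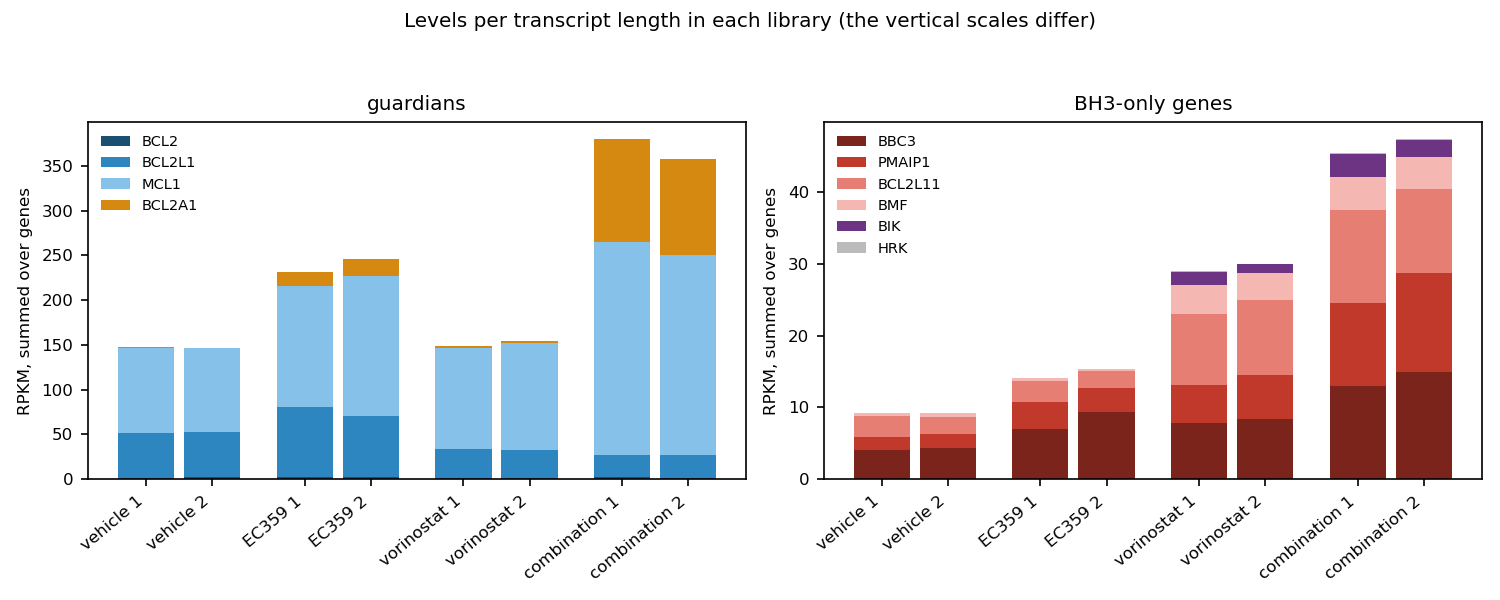
RPKM of the guardian members (left) and of the BH3-only members (right), stacked by gene for each of the 8 libraries, with different vertical scales. The guardian bars of the combination reach 380 and 358 RPKM, of which BCL2A1 makes up 30.3% and 30.2%, and the BH3-only bars reach 45.5 and 47.4 RPKM.

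The gene whose log2 CPM followed each member most closely over the 8 libraries was sought among 9968 genes by Pearson correlation. For BCL2A1 it was PHLDA1 (r = 0.9908), for MCL1 PTGS2 (r = 0.9943), for BCL2L1 GRPR (r = 0.9968) and for BCL2 METAP2 (r = 0.9776). For PMAIP1 it was DEDD2 (r = 0.9958), for BBC3 OSGIN1 (r = 0.9868), for BCL2L11 STX7 (r = 0.9991), for BMF KIAA0513 (r = 0.9976), for BIK TMEM50A (r = 0.9988) and for HRK POC5 (r = 0.9267). With 4 groups of 2 libraries, high values are reached by many genes, and these are descriptions.

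Around the members, 32 of 37 other genes of the mitochondrial pathway were tested. With EC359 alone 0 of these 32 were called by edgeR, as by DESeq2, with 10 higher and 9 lower at an unadjusted p under 0.05. Of all tested genes 1.94% rose and 1.72% fell with EC359, and 19.5% rose and 15.3% fell in the combination. The list counts below were not tested against these shares. Among 8 other BCL2 homologues, 0 rose and 2 fell in the combination by edgeR and by DESeq2, and 2 lay higher at an unadjusted p under 0.05. These were BID, the BH3-only protein that caspase-8 cleaves, at a log2 fold change of -2.31 ± 0.19, and the effector homologue BOK at -2.17 ± 0.22. The effectors BAX and BAK1 were not called, at -0.51 ± 0.15 and 0.65 ± 0.17. Of 10 genes for the apoptosome, caspases and released factors, 3 rose (CASP9, the initiator caspase, at 1.93 ± 0.16, with DIABLO and HTRA2), and CASP6 and ENDOG fell. Of 5 inhibitors of apoptosis, BIRC3, which encodes cIAP2, rose by 1.84 ± 0.14 and BIRC5, which encodes survivin, fell by 1.65 ± 0.14. Of 9 regulators of the family, DDIT3 (CHOP) rose by 2.68 ± 0.10 and USP9X, a deubiquitinase of MCL1, by 1.13 ± 0.092. With vorinostat alone BID and BOK fell and CASP9 and USP9X rose among these genes, where 16.8% of all tested genes rose and 13.3% fell. Against vorinostat, the combination raised BIRC3, DDIT3 and TRIB3, where 3.37% of all tested genes rose. Of the 32, edgeR called the interaction for DDIT3 alone, at 1.66 ± 0.14 (adjusted p = 3.1e-04), and DESeq2 also for ATF4.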

How the data were processed

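RNA-seq was carried out by the authors on 8 libraries of BT-549 cells with 50 bp single-end reads. Per the labels and the methods of the study, reads were aligned to hg19 with TopHat2 2.0.8b and counted per RefSeq gene with HTSeq, whose version and strand setting are not given in the sources used here. The deposited values are raw counts per gene symbol. The 5 HTSeq summary lines, which held 37.9% to 42% of all counts listed, were left out.

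Counts were filtered (filterByExpr), scaled by TMM (factors of 0.955 to 1.03) and fitted with 1 mean per group over all 8 libraries in edgeR 4.0.16 under R 4.3.3. Group means were compared by the quasi-likelihood test, adjusted over all tested genes. Each SE was taken from the F statistic, as the size of the log2 fold change over the square root of F. Lengths and coordinates came from GENCODE on GRCh37, which shares its build with hg19, and promoter letters from RefSeq. The procedure was tested on simulated data. The members, the pathway lists and the motifs were chosen with earlier results of these data known. The text names every member, genes of the pathway lists (some of which are not reported here), the markers and the gene most correlated with each member among those with an average log2 CPM of at least 3. Alternatives were RLE or total-count normalization, DESeq2 1.42.0, other filters, a fit on 4 libraries, other thresholds, a replicate block and leaving out each library. Libraries of a group differed by more than sampling noise, with a chi-square per gene of 2.26 to 51.5, so none was counted as a duplicate.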

Additional observations from a re-analysis of the deposited data

Results flagged for a closer look

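The effect of EC359 on BCL2L1, the gene of BCL-XL, differed with the presence of vorinostat, by -0.84 on the log2 scale (interaction term of edgeR's quasi-likelihood test, adjusted p = 0.0069). Levels were higher with EC359 than without it in 2 of 2 libraries in the absence of vorinostat (177.8 and 199.7 CPM against 128.2 and 130.1 CPM), and lower in 2 of 2 in its presence (64.7 and 66.0 CPM against 78.5 and 81.8 CPM). Over 15 alternatives the difference ranged from -0.926 to -0.755, and the adjusted p from 6.4e-06 to 0.066. The antisense gene ABALON overlaps exons of BCL2L1, and its share of these reads was not tested.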

How the results depend on the processing

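The cause of the changes below was not tested. Leaving out a library leaves 1 in its group, which is assumed to vary like the rest. Over these fits the members called ranged from 1 to 2 for EC359, from 5 to 5 for vorinostat, from 7 to 8 for the combination against vehicle, from 1 to 2 against vorinostat, from 6 to 6 against EC359 and from 0 to 2 for the interaction. Without the size threshold 5 members were called with EC359 and 4 in the combination against vorinostat. Whether the replicate numbers pair the libraries is not given, and they were not treated as pairs. Correlations of same-numbered deviations ran from -0.173 to 0.231, which cannot decide it. The value was 0.231 for vehicle with EC359. For the combination it was -0.1 with vehicle, -0.173 with EC359 and -0.108 with vorinostat. With the replicate block the interaction called 0 members (BCL2L1 at -0.84, adjusted p = 0.016, against 1 by DESeq2 without the block) and the other counts of calls were as before. Crossing the block by exchanging both numbers within the combination, a choice made after seeing the data, called 1, 5, 7, 2, 6 and 1.

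In log2 terms, signs turned for values that were not called. With 1 library left out, EC359 against vehicle gave BCL2L11 between -0.202 and 0.118 (0.117 without vehicle 1, 0.118 without EC359 2), BMF between -0.504 and 0.219 (0.14 without vehicle 2, 0.219 without EC359 2) and HRK between -1.39 and 4.61 (-0.738 without vehicle 2, -1.39 without EC359 2, and the highest against a vehicle library with 0 reads). Vorinostat gave HRK between -0.74 and 4.61 (-0.74 without vehicle 2, -0.186 without vorinostat 2). The interaction lay between -0.428 and 0.00348 for BCL2 (positive without EC359 1), between -0.372 and 0.0364 for BBC3 and between -0.00586 and 0.718 for BMF (signs turned without EC359 2), and between -2.4 and 3.6 for HRK (negative without vehicle 1). BCL2 in the combination against vehicle came to -0.0616 with total counts, -0.0206 without a filter, -0.0127 in the fit on 4 libraries, -0.0713 without vehicle 1 and -0.0411 without combination 1. Of the recomputed log2 values of single members, 903 kept direction and side of the threshold, 10 lost and 8 gained a call, and 17 turned. HRK and, in vehicle, BCL2A1 rest on at most 14 and 8 reads per library, which limits the precision of their folds.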
